A study of Mus musculus with 12 samples.

Results

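The 84 protein-coding genes that lie within about 5 Mb of Slc29a3 on mouse chromosome 10 were described here by their distance from Slc29a3 and across 4 groups of spleen dendritic cells. They were taken from the deposited gene table by position alone (mm10), with the first start at 56014293 and the last at 63928472. Slc29a3 itself (60712072 to 60752794) and Psap were left out. The 84 genes were among 54532 in the table, with 36 at lower and 48 at higher coordinates than Slc29a3. The 4 groups, of 3 libraries each, were SLC29A3-/- cells given bacteria (treated KO), wild-type cells given bacteria (treated WT), SLC29A3-/- cells without bacteria (untreated KO) and wild-type cells without bacteria (untreated WT). Mice of both genotypes carry a C57BL6 label. The bacteria were attenuated Salmonella typhimurium (STmDfla), added at a multiplicity of infection of 10 for 30 minutes and followed by a 3 hour chase. Dendritic cells, which present antigen to T cells, had been enriched on magnetic columns by removal of B, T and NK cells and then selection for CD11c. Separate animals are not stated for the libraries of a group, and the p-values therefore cover the spread among libraries, which may be a technical one. Which bases of Slc29a3 the mutant allele lacks, and the cells in which it was made, are not stated in the labels.

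Slc29a3 encodes ENT3, a nucleoside transporter of lysosomes. Genes beside a mutated gene are of separate interest in such mice, for general reasons that these data do not test. A mutant allele made in cells of another strain carries a stretch of that strain's chromosome with it through backcrossing (passenger DNA), and an inserted cassette or a lost regulatory element can alter neighbouring genes on the same chromosome (a cis effect). The stretch holds Vsir (the immune checkpoint VISTA), Srgn (serglycin, the core protein of granule proteoglycans), Gja1 (connexin 43) and Sgpl1 (sphingosine-1-phosphate lyase).

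Total gene counts per library ran from 15693172 to 24074596. Slc29a3 had 147, 191 and 124 CPM in treated KO libraries, against 197, 233 and 207 CPM in treated WT libraries, where CPM is the count scaled to a common library size with TMM factors. It had 94.0, 74.0 and 63.5 CPM in untreated KO libraries, against 110.2, 99.2 and 104 CPM in untreated WT libraries. All KO libraries lay below the WT libraries of the same treatment, and the KO minus WT difference averaged over both treatments was -0.45 ± 0.12 log2 (SE, edgeR, adjusted p = 0.0131). Neither treatment alone passed (edgeR, adjusted p = 0.0806 treated and 0.111 untreated). Counts of the gene were thus lower in KO and not absent. Gene counts cannot tell an intact transcript from one that lacks some bases. The 5 listed dendritic cell markers were present in every library. Their summed level was 17986 to 20579 CPM in treated KO, 26813 to 28862 CPM in treated WT, 13496 to 19108 CPM in untreated KO and 21191 to 22614 CPM in untreated WT libraries. Cd74 and H2-Ab1 made up most of that sum. Over all libraries Itgax was at 565 to 989 CPM, Flt3 at 175 to 383 CPM and Zbtb46 at 157 to 454 CPM. Of the 5, Cd74, H2-Ab1 and Zbtb46 were lower in KO averaged over treatments, and 0 were higher. Markers of other cells differed by genotype too. The sum of 8 monocyte and macrophage markers was 649 to 1649 CPM in treated KO, 201 to 237 CPM in treated WT, 754 to 1589.6 CPM in untreated KO and 216 to 265 CPM in untreated WT libraries, and 7 of the 8 were higher in KO averaged over treatments. The sum of 5 red cell markers was 1694 to 4630.5 CPM in treated KO, 2.68 to 8.60 CPM in treated WT, 1711 to 3679.7 CPM in untreated KO and 2.61 to 9.18 CPM in untreated WT libraries, with 5 of 5 higher in KO. The sum of 6 neutrophil markers was 59.1 to 611 CPM in treated KO, 7.73 to 10.4 CPM in treated WT, 37.8 to 459.9 CPM in untreated KO and 5.69 to 9.76 CPM in untreated WT libraries, with 6 of 6 higher in KO. The sum of 6 fibroblast and endothelial markers was 83.8 to 165 CPM in treated KO, 7.58 to 18.5 CPM in treated WT, 106 to 209 CPM in untreated KO and 6.13 to 14.1 CPM in untreated WT libraries, with the 2 members that could be tested, Pecam1 and Pdgfrb, higher in KO and Col3a1 at 0 in all libraries. Pecam1 made up nearly all of that sum, and the other 5 members together were at 0.359 to 0.986 CPM in treated KO, 0.283 to 0.988 CPM in treated WT, 0.679 to 1.09 CPM in untreated KO and 0.397 to 0.852 CPM in untreated WT libraries. In RNA from mixed cells, more cells of a type and more RNA per cell cannot be told apart.

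Of the 84 genes, 50 had enough counts to be tested among 14293 genes, 25 on each side of Slc29a3. The others are counted at the end. Of the 50, 46 were above the filter level of 0.583 CPM in every group, and 4 (Unc5b, Pcbd1, Spock2 and Gm10273) were below it in at least 1 group. Per kb of gene, the mean level over the 12 libraries was highest for Srgn (570.1 CPM per kb), then Sgpl1 (91.7 CPM per kb), and lowest for Spock2 (0.0731 CPM per kb) and Unc5b (0.146 CPM per kb). The median was 6.10 CPM per kb over the 50 genes and 3.92 CPM per kb over all genes tested.

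The first question was whether the genes around Slc29a3 differed between genotypes. In untreated cells 4 of the 50 were higher in KO than in WT and 0 were lower (edgeR quasi-likelihood test, Benjamini-Hochberg adjusted p under 0.05), namely Vsir, Ddit4, Unc5b and Pcbd1. That is 8% of the 50, beside 13% of all genes tested (9.5% higher and 3.46% lower in KO). At an unadjusted p under 0.05, 10 were higher and 5 lower, and the DESeq2 Wald test called 7 higher and 3 lower. In treated cells Smpdl3a, Unc5b and Pcbd1 were higher in KO and Rufy2 and Herc4 were lower, which is 5 of 50 or 10%, beside 14.1% of all genes tested (9.21% higher and 4.89% lower in KO). For the difference averaged over treatments, 9 were higher and 5 lower, 28% of the 50, beside 28.1% of all genes tested (16.7% higher and 11.3% lower in KO). The KO and WT libraries did not overlap in untreated cells for 20 of the 50 genes (40%), beside 37.4% of all genes tested, and in treated cells for 11 (22%), beside 28.8%. The sign of the difference was the same in both treatments for 34 of the 50 (68%), beside 75.3% of all genes tested. In a fit on coding genes alone, 6 of the 50 were called in untreated cells, 5 in treated cells and 15 for the averaged difference. Of all coding genes in that fit, 16%, 16.7% and 34.2% were called. In these edgeR fits, the genes around Slc29a3 had shares of genotype calls at or below those of the whole table, in these 3 comparisons. Some other settings gave shares above it. The DESeq2 Wald test called 10 of the 50 in untreated cells, beside 17.9% of all genes tested. With the library number as a block across all libraries, edgeR called 21 of the 50 for the averaged difference, beside 33% of all genes tested.

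The spread of the calls with distance, which is the gap between gene bodies, depended on the comparison and the test. In untreated cells all 4 genes called by edgeR lay within 1 Mb of Slc29a3, 4 of the 19 tested there (21.1%, beside 13% of all genes tested), and 0 of the 31 farther genes were called (8 of these had an unadjusted p under 0.05). The DESeq2 Wald test called 5 of the 19 nearer and 5 of the 31 farther genes there, beside 17.9% of all genes tested. In treated cells edgeR called 2 of the 19 nearer genes (10.5%) and 3 of the 31 farther ones (9.68%), beside 14.1% of all genes tested. For the averaged difference it called 7 of the 19 (36.8%) and 7 of the 31 (22.6%), beside 28.1% of all genes tested. Unc5b and Pcbd1 passed the filter only through their level in KO, so that their place in these counts is a description. Spock2 was below the filter level on average in both WT groups, though a treated WT library was above it. Of the 16 genes within 1 Mb other than Unc5b, Pcbd1 and Spock2, 2 were called in untreated cells (Vsir and Ddit4). In treated cells 0 were called, and for the averaged difference 5.

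By finer steps of distance, 4 of the 6 genes under 0.5 Mb were called for the averaged difference, all higher in KO (Cdh23, Vsir, Unc5b and Pcbd1), beside 16.7% higher and 11.3% lower of all genes tested. Unc5b and Pcbd1 passed the filter only through KO, and without them 2 of 4 were called under 0.5 Mb. At 0.5 to 1 Mb, 2 were higher and 1 lower of 13. At 1 to 2 Mb, 2 were higher and 3 lower of 13, at 2 to 3.5 Mb 1 was higher and 1 lower of 15, and over 3.5 Mb 0 of 3 were called. The median averaged difference was 0.90 log2 under 0.5 Mb, 0.19 at 0.5 to 1 Mb, -0.07 at 1 to 2 Mb, 0.01 at 2 to 3.5 Mb and -0.11 over 3.5 Mb, and -0.0034 over all genes tested. Without Unc5b and Pcbd1 the median under 0.5 Mb was 0.47 log2, over 4 genes. Farther out on chromosome 10, 5 genes were higher and 9 lower in KO of 32 at 5 to 10 Mb, 29 higher and 13 lower of 146 at 10 to 20 Mb, and 62 higher and 60 lower of 425 beyond 20 Mb. No test of the trend with distance was made. The tested genes with the first and the last start inside the stretch were Tbc1d32 (averaged difference 0.98 log2) and Dnajc12 (-0.17), and the nearest ones outside it were Man1a (-0.47) and Fam184a (0.16) at lower and Reep3 (-0.72) and Jmjd1c (-0.40) at higher coordinates.

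**Figure D1:**
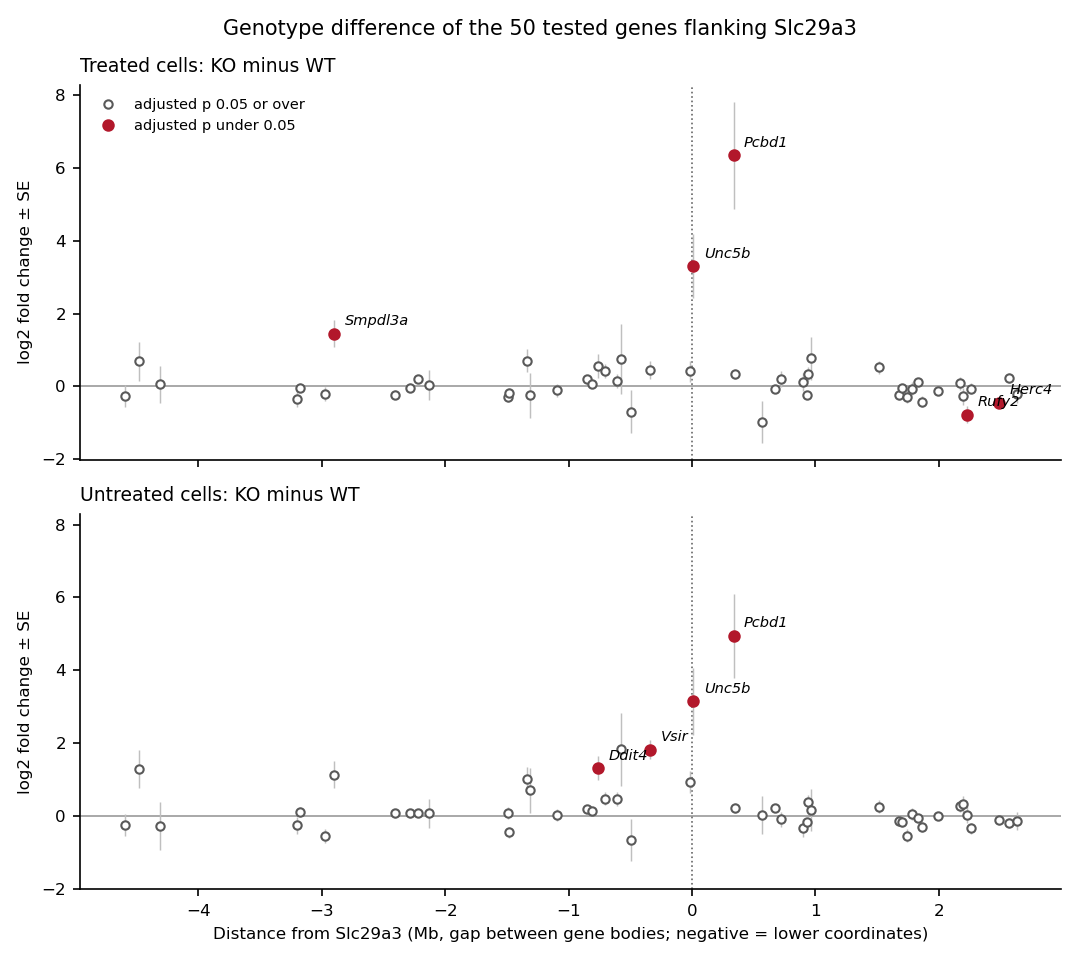
Each point is one of the 50 tested genes, with its KO minus WT log2 fold change ± SE (vertical axis) in treated cells (upper panel) and untreated cells (lower panel) against its distance from Slc29a3 in Mb (horizontal axis, negative for lower coordinates). Filled points had an edgeR adjusted p under 0.05: Smpdl3a, Unc5b, Pcbd1, Rufy2 and Herc4 in treated cells and Vsir, Ddit4, Unc5b and Pcbd1, all within 1 Mb, in untreated cells.

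Unc5b and Pcbd1, on the higher side, were nearly silent in WT cells and low but detected in KO cells. Unc5b (60762593 to 60831581, minus strand), a receptor for netrins, lies 0.00980 Mb from Slc29a3. It had 0.839, 1.51 and 4.14 CPM in treated KO libraries, against 0.353, 0 and 0.284 CPM in treated WT libraries. It had 0.613, 0.731 and 2.13 CPM in untreated KO libraries, against 0.106, 0.103 and 0.170 CPM in untreated WT libraries. The genotypes did not overlap in either treatment, and the KO library numbered 3 was the highest both times. The KO minus WT difference was 3.31 ± 0.87 log2 in treated cells (edgeR, adjusted p = 0.0259) and 3.15 ± 0.92 log2 in untreated cells (edgeR, adjusted p = 0.0422). Because Unc5b passed the filter only through its level in KO, these p-values are a description.

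Pcbd1 (61089331 to 61094324, plus strand, 0.337 Mb away) encodes a dehydratase that recycles the cofactor tetrahydrobiopterin. It had 4, 5 and 17 counts in treated KO libraries, against 0, 0 and 0 counts in treated WT libraries. It had 7, 19 and 19 counts in untreated KO libraries, against 0, 0 and 1 count in untreated WT libraries. Every KO library held more than any WT library. In treated cells the summed KO level was 9.44-fold that of WT, with the WT group set to a floor of 3 counts in sum. From the observed counts, the lower limit of a 95% counting interval of the ratio was 7.14-fold. In untreated cells the ratio of 45 to 1 summed counts, scaled for depth, was 43.3, with a 95% counting interval from 7.38 to 1746, which covers counting error only. The edgeR adjusted p was 0.0192 in treated and 0.0182 in untreated cells, and the fitted fold changes of so low a gene depend on the prior count and are not given as sizes. Because Pcbd1 also passed the filter only through its level in KO, these p-values are a description. With the KO libraries at 0.240 to 1.19 CPM, Pcbd1 was a rare transcript in KO cells too.

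Vsir (60346851 to 60372684, plus strand, 0.339 Mb away) encodes VISTA, an inhibitory ligand and receptor of T cell activation carried by myeloid cells. It had 77.0, 95 and 93.8 CPM in treated KO libraries, against 75.9, 64.2 and 55.2 CPM in treated WT libraries. It had 74.1, 112 and 169 CPM in untreated KO libraries, against 40.0, 26.3 and 34.5 CPM in untreated WT libraries. The untreated groups were wide apart, and the treated groups were separated only narrowly. The KO minus WT difference was 1.81 ± 0.26 log2 in untreated cells (edgeR, adjusted p = 0.00134) and 0.45 ± 0.25 log2 in treated cells (edgeR, adjusted p = 0.266). The untreated call held in all 26 alternatives in which it could be tested, with differences from 1.42 to 2.04 log2. Vsir lies inside Cdh23 on the opposite strand and shares 0 exon bases with it, and whether the counting used strand is not stated in the labels.

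Cdh23 (60302748 to 60696490, minus strand, 0.0156 Mb away), a cadherin known from the tip links of inner ear hair cells, had 4.43, 7.83 and 7.57 CPM in treated KO libraries, against 6.00, 4.94 and 3.98 CPM in treated WT libraries. It had 3.57, 6.11 and 6.97 CPM in untreated KO libraries, against 3.14, 2.97 and 2.67 CPM in untreated WT libraries. Only the untreated groups were separate, and the averaged difference was 0.67 ± 0.21 log2 (edgeR, adjusted p = 0.0303). Sgpl1, which degrades sphingosine-1-phosphate, had 544, 738 and 749 CPM in treated KO libraries, against 518, 565 and 529 CPM in treated WT libraries, and 481, 549 and 649 CPM in untreated KO libraries, against 483, 472 and 485 CPM in untreated WT libraries. The groups overlapped in both treatments, and the averaged difference of 0.28 ± 0.10 log2 did not pass (edgeR, adjusted p = 0.050). Chst3, a sulfotransferase of chondroitin sulfate, had 13.2, 5.92 and 6.94 CPM in treated KO libraries, against 22.1, 6.10 and 14 CPM in treated WT libraries, and 11.8, 4.02 and 3.46 CPM in untreated KO libraries, against 16.1, 4.92 and 9.47 CPM in untreated WT libraries. Library 1 was the highest of its group each time, the genotypes overlapped, and the averaged difference was -0.68 ± 0.41 log2 (edgeR, adjusted p = 0.253). Chst3 was nonetheless lower in KO in 6 of 6 pairs of libraries with the same number and treatment, and with the number as a block across all libraries the averaged difference was -0.66 ± 0.17 log2 (edgeR, adjusted p = 0.0117). Deviations from group means of same-numbered KO and WT libraries correlated with r = 0.115 to 0.314 in treated and 0.0787 to 0.323 in untreated cells. These ranges overlap, so the data do not set the treatments clearly apart in pairing.

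Between 0.5 and 1 Mb, Ddit4 had the largest averaged difference of the called genes. Ddit4 (59949669 to 59951834, minus strand, 0.760 Mb away) encodes REDD1, a stress-induced inhibitor of the growth kinase complex mTORC1. It had 85.4, 70.1 and 60.6 CPM in treated KO libraries, against 59.8, 23.1 and 63.9 CPM in treated WT libraries. It had 50.5, 44.0 and 55.3 CPM in untreated KO libraries, against 23.0, 12.9 and 24.7 CPM in untreated WT libraries. The untreated groups were separate and the treated groups overlapped. The difference was 1.31 ± 0.34 log2 in untreated cells (edgeR, adjusted p = 0.0240) and 0.56 ± 0.33 log2 in treated cells (edgeR, adjusted p = 0.282).

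Anapc16, a subunit of the anaphase-promoting complex, had 20.8, 22.0 and 28.4 CPM in treated KO libraries, against 18.9, 18.1 and 16 CPM in treated WT libraries, and 25.1, 34.9 and 42.4 CPM in untreated KO libraries, against 23.9, 25.5 and 24.6 CPM in untreated WT libraries. Its averaged difference was 0.45 ± 0.13 log2 (edgeR, adjusted p = 0.0197), with the treated groups separate and the untreated groups overlapping by 1 KO library. Sar1a, a GTPase of the COPII coat that carries cargo out of the endoplasmic reticulum, was the 1 called gene within 1 Mb that was lower in KO. It had 176, 189 and 203 CPM in treated KO libraries, against 210.2, 220.0 and 238 CPM in treated WT libraries, and 158, 169 and 151 CPM in untreated KO libraries, against 173, 174 and 192 CPM in untreated WT libraries. Its groups were separate in both treatments, and the averaged difference was small at -0.20 ± 0.07 log2 (edgeR, adjusted p = 0.0412).

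A further 9 tested genes between 0.5 and 1 Mb passed no genotype test in the edgeR fit without a block. Their averaged differences ran from -0.48 log2 for Pald1 to 1.29 log2 for Spock2. Tysnd1 passed for the averaged difference in some alternatives, among them the DESeq2 Wald test and the library number as a block across all libraries. The proteoglycan gene Spock2, near the detection limit, had 0.899, 0.464 and 0.210 CPM in treated KO libraries, against 0.706, 0.291 and 0 CPM in treated WT libraries, and 1.00, 0.313 and 0.474 CPM in untreated KO libraries, against 0.160, 0.0513 and 0.284 CPM in untreated WT libraries. Aifm2, an oxidoreductase that protects lipids from peroxidation, had 1.68, 3.60 and 1.19 CPM in treated KO libraries, against 1.77, 1.45 and 0.616 CPM in treated WT libraries, and 1.00, 3.66 and 1.28 CPM in untreated KO libraries, against 1.12, 2.41 and 1.76 CPM in untreated WT libraries. The spread of both genes within a group was as wide as the gap between groups. Pald1 had 0.359, 1.10 and 0.561 CPM in treated KO libraries, against 0.848, 0.639 and 2.46 CPM in treated WT libraries, and 1.56, 1.72 and 2.80 CPM in untreated KO libraries, against 1.44, 2.56 and 2.04 CPM in untreated WT libraries. Ascc1, a part of a transcription coactivator and DNA repair complex, had 14.3, 11.1 and 12.1 CPM in treated KO libraries, against 12.9, 12.2 and 8.86 CPM in treated WT libraries, and 14.8, 10.7 and 14.4 CPM in untreated KO libraries, against 10.8, 9.69 and 8.68 CPM in untreated WT libraries. KO and WT overlapped for both in each treatment. Dnajb12, a chaperone partner in the endoplasmic reticulum, had 41.4, 51.7 and 47.1 CPM in treated KO libraries, against 41.4, 43.2 and 49.3 CPM in treated WT libraries, and 41.2, 44.2 and 48.3 CPM in untreated KO libraries, against 37.9, 45.1 and 39.4 CPM in untreated WT libraries. Lrrc20 had 4.67, 3.66 and 3.85 CPM in treated KO libraries, against 2.90, 3.60 and 4.03 CPM in treated WT libraries, and 5.35, 5.12 and 4.13 CPM in untreated KO libraries, against 5.27, 5.38 and 4.99 CPM in untreated WT libraries. These groups overlapped too. Eif4ebp2, Ppa1 and Tysnd1, given with the responses, complete the 9, and Tysnd1 and Eif4ebp2 were separate between genotypes in untreated cells without passing the test.

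**Figure D2:**
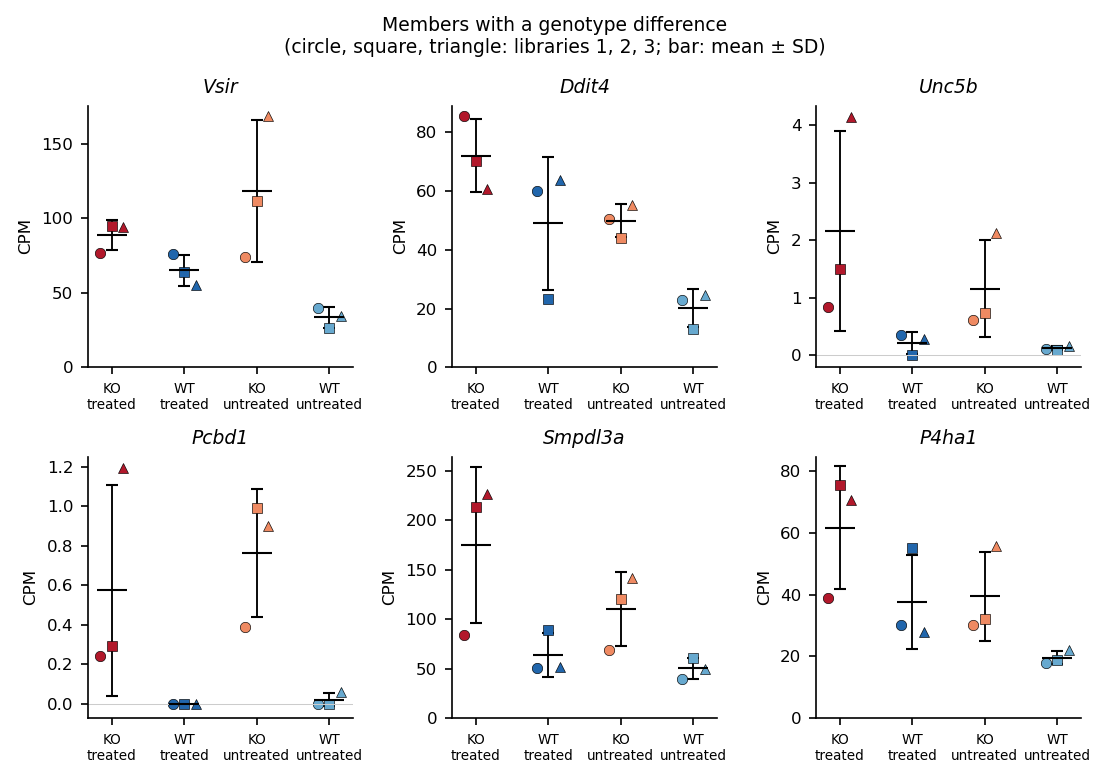
The vertical axis is CPM for Vsir, Ddit4, Unc5b, Pcbd1, Smpdl3a and P4ha1 in each library, in the order treated KO, treated WT, untreated KO and untreated WT, with the library number as the symbol and the mean ± SD as bars. For Unc5b, Pcbd1 and Vsir every KO point lay above every WT point of the same treatment.

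Farther from Slc29a3, Smpdl3a (57794335 to 57811830, plus strand, 2.90 Mb away), a phosphodiesterase related to acid sphingomyelinase, was higher in KO. It had 84.3, 213 and 227 CPM in treated KO libraries, against 51.1, 89.4 and 51.5 CPM in treated WT libraries. It had 68.7, 120.2 and 142 CPM in untreated KO libraries, against 39.7, 61.1 and 50.3 CPM in untreated WT libraries. KO library 1 was the lowest of the KO libraries in both treatments and overlapped the WT range only in treated cells. The difference was 1.45 ± 0.37 log2 in treated cells (edgeR, adjusted p = 0.0251), 1.13 ± 0.37 log2 in untreated cells (edgeR, adjusted p = 0.0694) and 1.29 ± 0.26 log2 averaged (edgeR, adjusted p = 0.00359).

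P4ha1, a subunit of the prolyl hydroxylase of collagen, had 38.8, 75.5 and 70.4 CPM in treated KO libraries, against 30.2, 55.2 and 27.8 CPM in treated WT libraries, and 30.2, 32.2 and 55.8 CPM in untreated KO libraries, against 17.9, 19.0 and 22.0 CPM in untreated WT libraries. The averaged difference was 0.86 ± 0.23 log2 (edgeR, adjusted p = 0.0145), with only the untreated groups separate. Hk1, the hexokinase of the first step of glycolysis, had 52.5, 92.1 and 76.8 CPM in treated KO libraries, against 56.4, 47.9 and 50 CPM in treated WT libraries, and 50, 41.6 and 43.0 CPM in untreated KO libraries, against 40.8, 39.3 and 32.8 CPM in untreated WT libraries. Its averaged difference was 0.39 ± 0.12 log2 (edgeR, adjusted p = 0.0347), and again only the untreated groups were separate. Hk1 shares 157 exon bases with the antisense gene Hk1os.

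Genes lower in KO were all at higher coordinates than Slc29a3 except Sowahc, and their differences were small. Srgn had 1580.2, 1602 and 1753 CPM in treated KO libraries, against 1644, 2683 and 1659 CPM in treated WT libraries, and 639, 534 and 496 CPM in untreated KO libraries, against 773, 832 and 828 CPM in untreated WT libraries. The averaged difference was -0.41 ± 0.12 log2 (edgeR, adjusted p = 0.0254), with the untreated groups separate. The RNA helicase gene Ddx50 had 71.6, 56.9 and 48.1 CPM in treated KO libraries, against 71.5, 91.4 and 72.7 CPM in treated WT libraries, and 59.3, 57.4 and 54.2 CPM in untreated KO libraries, against 70.4, 71.8 and 70.9 CPM in untreated WT libraries. Its averaged difference was -0.37 ± 0.10 log2 (edgeR, adjusted p = 0.0162). The ubiquitin ligase gene Herc4 had 127, 105 and 114 CPM in treated KO libraries, against 130.1, 173 and 167 CPM in treated WT libraries, and the groups were separate by -0.44 ± 0.12 log2 (edgeR, adjusted p = 0.0311). In untreated cells Herc4 had 113, 124 and 119.7 CPM in KO libraries, against 118, 132 and 139 CPM in WT libraries, and the groups overlapped.

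Rufy2, which encodes an endosomal RUN and FYVE domain protein, had 7.13, 4.29 and 3.78 CPM in treated KO libraries, against 8.97, 9.59 and 7.58 CPM in treated WT libraries, a difference of -0.78 ± 0.23 log2 (edgeR, adjusted p = 0.0395). In untreated cells it had 9.08, 8.88 and 11.0 CPM in KO libraries, against 9.74, 9.13 and 9.36 CPM in WT libraries, and the groups overlapped. Sowahc had 253, 284 and 322 CPM in treated KO libraries, against 273, 408 and 295 CPM in treated WT libraries, and 145, 117 and 124 CPM in untreated KO libraries, against 167, 172 and 187 CPM in untreated WT libraries. Its averaged difference was -0.32 ± 0.11 log2 (edgeR, adjusted p = 0.0447), with only the untreated groups separate. Rufy2 shares 115 exon bases with Hnrnph3 and Herc4 shares 267 with a long noncoding gene on the opposite strand. With the library number as a block across all libraries, Ddx50 also passed in treated cells (-0.42 log2, edgeR adjusted p = 0.0388).

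Several of these genes had the same order across KO libraries as the monocyte and macrophage marker sum. Among untreated KO libraries 1, 2 and 3 the sum was 754, 995 and 1589.6 CPM. Vsir, Smpdl3a, Cdh23, Unc5b, P4ha1 and Anapc16 were lowest in library 1 and highest in library 3 there. Pcbd1, Ddit4 and Hk1, also higher in KO on average, did not have that order. Among treated KO libraries 1, 2 and 3 the sum was 649, 1033 and 1649 CPM, and Smpdl3a, Unc5b, Pcbd1 and Anapc16 were lowest in library 1 and highest in library 3. So were Srgn, Sar1a and Sowahc, which were lower in KO on average. Vsir, Cdh23, P4ha1 and Hk1 were highest in library 2 of the treated KO group, and Ddit4 in its library 1. The share of all genes tested with such an order was not counted. The order was not particular to macrophage markers. The red cell sum was 1711, 2068 and 3679.7 CPM in untreated KO libraries 1, 2 and 3 and 1694, 2346 and 4630.5 CPM in treated KO libraries 1, 2 and 3, and Pecam1 had that order too. The part of other cell types in the genotype differences was not tested. With both KO libraries numbered 3 left out, 4 of the 9 genes higher in KO on average still passed, namely Smpdl3a, Ddit4, Vsir and Unc5b. Pcbd1 had too few counts to be tested, and the call of Unc5b, which passed the filter only through KO, is a description. Of all genes tested, 16.8% were then called, against 28.1%. The KO libraries that stayed had marker sums of 649 to 1033 CPM, and WT libraries had at most 265 CPM. The part of other cell types was thus not tested by this omission.

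**Figure D3:**
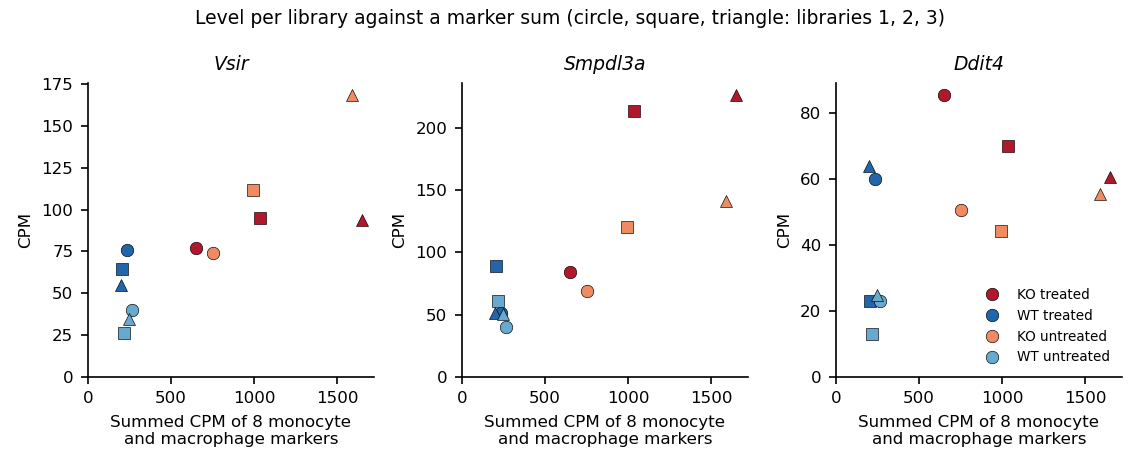
Each point is a library, with CPM of Vsir, Smpdl3a or Ddit4 on the vertical axis and the summed CPM of 8 monocyte and macrophage markers on the horizontal axis, colours for the 4 groups and symbols for the library number. KO libraries had sums of 649 CPM or more and WT libraries of 265 CPM or less, so genotype and marker sum did not overlap.

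Several of these calls were lost when a single library was left out, which also leaves fewer libraries to test with. Over single omissions the share of all genes tested that was called ran from 5.83% to 14.4% in untreated cells, against 13%. In treated cells it ran from 6.95% to 19.6%, against 14.1%. In untreated cells the calls of Ddit4, Unc5b and Pcbd1 were each lost when untreated KO library 2 or 3, or any of the 3 untreated WT libraries, was left out. The call of Ddit4 was lost also without untreated KO library 1, and that of Unc5b without treated KO library 2 or treated WT library 3. Over all single omissions the untreated difference stayed between 1.02 and 1.43 log2 for Ddit4 and between 2.32 and 3.40 log2 for Unc5b. In treated cells none of the 5 calls held without treated KO library 3 or without treated WT library 3. There Smpdl3a (1.22 to 1.78 log2 over single omissions) was also lost without treated KO library 2 or treated WT library 1, Unc5b (2.45 to 3.77 log2) without treated WT library 2, Herc4 (-0.56 to -0.36 log2) without library 2 of any group, and Rufy2 (-1.11 to -0.61 log2) without any library except treated KO library 1. The averaged calls of Smpdl3a, Vsir and Unc5b held in all 25 alternatives, that of Pcbd1 in the 24 in which it could be tested, and those of Ddit4, P4ha1 and Ddx50 held under each single omission. Unc5b and Pcbd1 passed the filter only through their level in KO, so that their calls, kept or lost, are a description. Sowahc, Anapc16, Cdh23, Sar1a, Hk1, Srgn and Herc4 each lost the averaged call with 1 or more single libraries left out, and every library except treated WT library 1 was among these. No genotype call named here changed its sign in any alternative.

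The second question was how these genes responded to the bacteria. In KO cells 11 of the 50 rose and 5 fell (32%, beside 23% of all genes tested, where 11.6% rose and 11.5% fell), and in WT cells 11 rose and 4 fell (30%, beside 18.7% of all genes tested, where 10.6% rose and 8.07% fell). In both genotypes 7 rose and 4 fell, 14% and 8% of the 50, beside 8.32% and 5.45% of all genes tested. The sign of the response was the same in both genotypes for 41 of the 50 (82%), beside 79.7% of all genes tested. Treated and untreated libraries did not overlap for 21 of the 50 in KO (42%, beside 40.3% of all genes tested) and for 24 in WT (48%, beside 38.9%). In a fit on coding genes alone, 18 of the 50 were called in KO and 15 in WT. Of all coding genes in that fit, 25.5% and 21.7% were called. These counts use library scaling by TMM. With library totals alone, the median response of all genes tested shifted to -0.38 log2 in KO and -0.35 log2 in WT. The counts among the 50 became 6 up and 11 down in KO and 6 up and 8 down in WT. Of all genes tested, 40% were then called in KO (1030 up and 4691 down) and 35.2% in WT (799 up and 4225 down). The larger share of the 50 called with TMM was thus not seen with library totals alone.

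Gja1, the gap junction protein connexin 43, was the gene that rose most. It had 6.65, 14.9 and 24.5 CPM in treated KO libraries, against 0.725, 0.888 and 1.23 CPM in untreated KO libraries. It had 13.1, 6.92 and 24.0 CPM in treated WT libraries, against 1.12, 0.513 and 1.87 CPM in untreated WT libraries. Treated and untreated libraries were far apart in both genotypes, while KO and WT overlapped in both treatments. The response was 3.99 ± 0.61 log2 in KO (edgeR, adjusted p = 0.000676) and 3.66 ± 0.60 log2 in WT (edgeR, adjusted p = 0.00157).

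Srgn, by far the most abundant of these transcripts, rose by 1.56 ± 0.18 log2 in KO (edgeR, adjusted p = 6.29e-05) and by 1.30 ± 0.18 log2 in WT (edgeR, adjusted p = 0.000354), and all its treated libraries lay above all untreated ones. Ppa1, the pyrophosphatase of the cytosol, had 37.9, 62.3 and 75.8 CPM in treated KO libraries, against 23.2, 21.9 and 24.2 CPM in untreated KO libraries, a rise of 1.34 ± 0.26 log2 (edgeR, adjusted p = 0.00308). It had 38.8, 61.1 and 60.7 CPM in treated WT libraries, against 21.6, 35.7 and 30.1 CPM in untreated WT libraries, a rise of 0.88 ± 0.26 log2 (edgeR, adjusted p = 0.0333), with a narrow gap between the groups. That WT call was lost without treated WT library 2 or 3, untreated WT library 1 or 3 or untreated KO library 2 (0.68 to 1.06 log2). Sowahc, at the levels given above, rose by 1.16 ± 0.15 log2 in KO (edgeR, adjusted p = 0.000209) and 0.89 ± 0.15 log2 in WT (edgeR, adjusted p = 0.00189), and its groups were separate in both genotypes. Ranbp2, a nucleoporin, Hsf2, a heat shock transcription factor, and Serinc1 also rose in both genotypes, by 0.90 and 0.76 log2, 0.75 and 0.83 log2, and 0.50 and 0.64 log2 in KO and WT. The Ranbp2 calls held in all alternatives. Hsf2 overlapped between treated and untreated KO libraries, and its KO call was lost without treated KO library 1 or 2, untreated KO library 2 or 3 or untreated WT library 3 (0.60 to 1.04 log2 over single omissions). Its WT call was lost without treated WT library 1 or 2, untreated WT library 2 or 3 or untreated KO library 2 (0.68 to 1.00 log2), and the Serinc1 KO call without treated or untreated KO library 2 (0.48 to 0.58 log2).

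**Figure D4:**
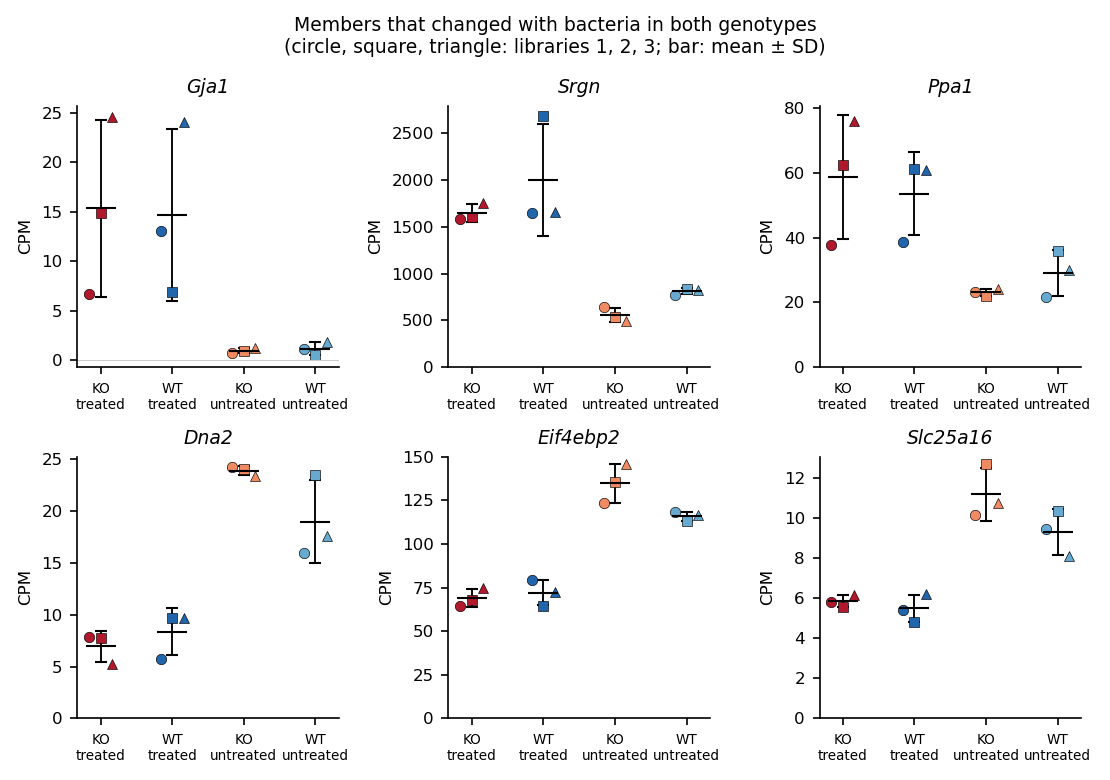
The vertical axis is CPM per library for Gja1, Srgn, Ppa1, Dna2, Eif4ebp2 and Slc25a16, in the order treated KO, treated WT, untreated KO and untreated WT, with the library number as the symbol and the mean ± SD as bars. The upper 3 genes were higher and the lower 3 lower in treated libraries, without overlap within a genotype.

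The genes that fell in both genotypes included Dna2, a nuclease and helicase of DNA replication and repair. It had 7.85, 7.72 and 5.26 CPM in treated KO libraries, against 24.2, 24.0 and 23.4 CPM in untreated KO libraries. It had 5.72, 9.65 and 9.67 CPM in treated WT libraries, against 15.9, 23.5 and 17.6 CPM in untreated WT libraries. The groups did not overlap, and the response was -1.78 ± 0.23 log2 in KO (edgeR, adjusted p = 0.000169) and -1.18 ± 0.23 log2 in WT (edgeR, adjusted p = 0.00372). Eif4ebp2, a repressor of cap-dependent translation, had 64.7, 68.0 and 74.6 CPM in treated KO libraries, against 123, 135 and 146 CPM in untreated KO libraries, and 79.2, 64.4 and 72.7 CPM in treated WT libraries, against 118, 113 and 116 CPM in untreated WT libraries. It fell by 0.97 log2 in KO (edgeR, adjusted p = 4.58e-05) and by 0.68 log2 in WT (edgeR, adjusted p = 0.000877). Slc25a16, a carrier of the mitochondrial membrane, had 5.81, 5.57 and 6.17 CPM in treated KO libraries, against 10.1, 12.7 and 10.8 CPM in untreated KO libraries, and 5.44, 4.82 and 6.21 CPM in treated WT libraries, against 9.47, 10.4 and 8.11 CPM in untreated WT libraries. Tysnd1, a protease of peroxisomes, had 9.05, 12.8 and 10.6 CPM in treated KO libraries, against 19.0, 21 and 22.0 CPM in untreated KO libraries, and 7.91, 7.03 and 10.5 CPM in treated WT libraries, against 14.7, 14.3 and 18.4 CPM in untreated WT libraries. Slc25a16 and Tysnd1 both fell by 0.94 log2 in KO, and in WT by 0.76 and 0.89 log2.

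Start regions of the 3 genes with the largest response of either direction are shown because these genes changed with the bacteria in both genotypes. They are RefSeq sequences (GRCm38.p6), 250 bases before to 50 after a start, 5′ to 3′ on the gene's strand, and capitals mark motif matches on either strand. The motifs searched were an interferon response element (GAAA, then 2 bases of any kind, then GAAA), NF-kB (GGG, then 5 of any kind, then CC, a loose form) and AP-1 (TGA, then 1 of any kind, then TCA).
Gja1, chr10:56377050-56377349, plus strand: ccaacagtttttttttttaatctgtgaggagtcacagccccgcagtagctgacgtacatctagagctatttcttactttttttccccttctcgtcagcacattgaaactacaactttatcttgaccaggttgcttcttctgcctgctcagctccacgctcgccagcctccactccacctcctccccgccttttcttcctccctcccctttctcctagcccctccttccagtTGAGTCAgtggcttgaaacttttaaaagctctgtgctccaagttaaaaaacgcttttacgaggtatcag
Srgn start 1, chr10:62527396-62527695, minus strand: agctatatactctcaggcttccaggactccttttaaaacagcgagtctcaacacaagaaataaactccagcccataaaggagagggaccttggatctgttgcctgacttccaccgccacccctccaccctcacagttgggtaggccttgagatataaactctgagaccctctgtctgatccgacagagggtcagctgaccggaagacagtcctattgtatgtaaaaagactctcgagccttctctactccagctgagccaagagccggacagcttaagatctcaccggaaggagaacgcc
Srgn start 2, chr10:62507708-62508007, minus strand: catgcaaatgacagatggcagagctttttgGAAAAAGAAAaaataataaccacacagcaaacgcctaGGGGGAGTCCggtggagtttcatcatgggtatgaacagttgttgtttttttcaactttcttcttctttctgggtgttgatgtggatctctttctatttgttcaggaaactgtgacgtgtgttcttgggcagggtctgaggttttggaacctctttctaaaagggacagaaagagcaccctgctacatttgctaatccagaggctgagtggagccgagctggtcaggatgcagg
Dna2, chr10:62946779-62947078, plus strand: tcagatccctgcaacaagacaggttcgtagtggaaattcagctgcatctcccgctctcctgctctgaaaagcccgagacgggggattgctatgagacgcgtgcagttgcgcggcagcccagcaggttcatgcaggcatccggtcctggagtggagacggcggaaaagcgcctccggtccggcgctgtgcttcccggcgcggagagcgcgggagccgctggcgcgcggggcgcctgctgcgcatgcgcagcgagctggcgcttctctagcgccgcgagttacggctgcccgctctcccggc
The Gja1 region held 1 AP-1 match, the second Srgn region held 1 interferon response element and 1 NF-kB match that did not overlap, and the first Srgn and the Dna2 regions held none of these letters. Over all 32851 RefSeq start regions of this length, 3.44% held the interferon response element, 50.8% the NF-kB form and 7.81% AP-1. Of the 50 start regions of the 41 tested genes with an entry, 4% held the first, 68% the second and 8% the third. A match describes the letters only and says nothing of binding.

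**Figure D5:**
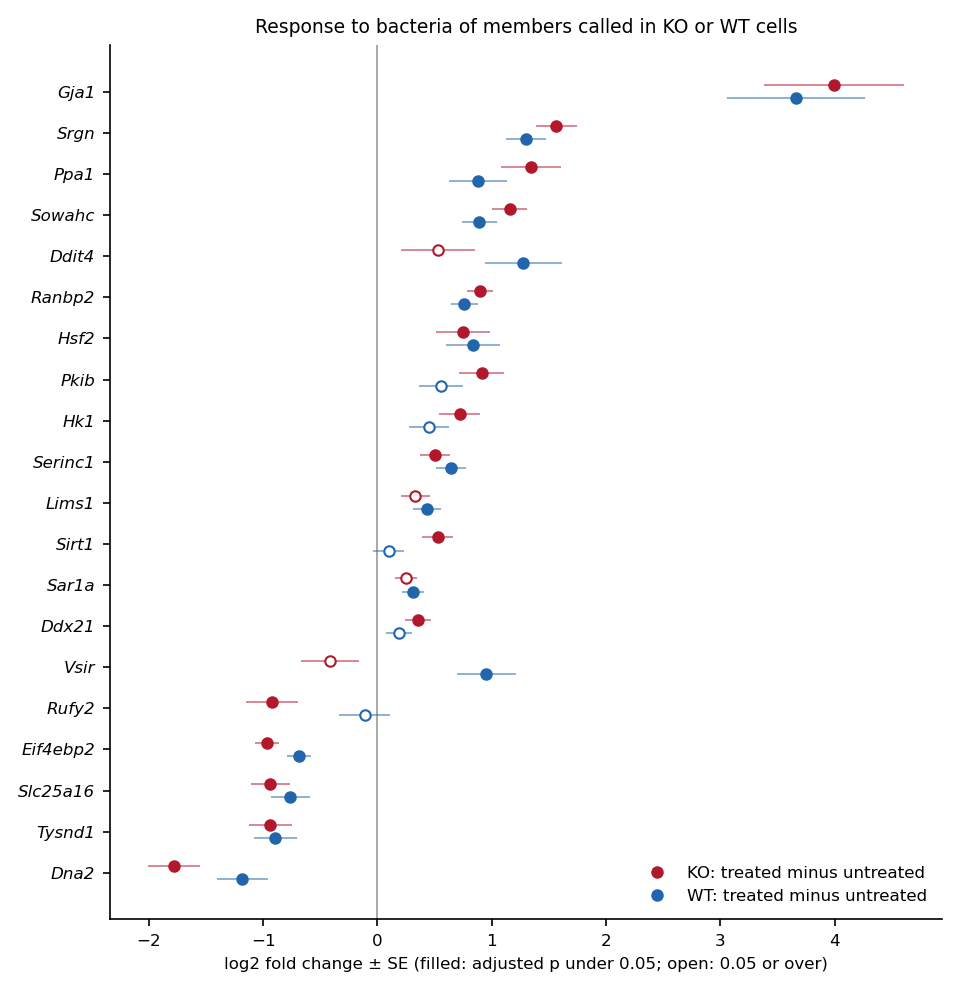
Points are the log2 fold change ± SE of treated over untreated cells (horizontal axis) in KO and in WT for the 20 genes called in either genotype (vertical axis), filled where the edgeR adjusted p was under 0.05. Gja1 lay farthest to the right and Dna2 farthest to the left in both genotypes, and Vsir lay on opposite sides of 0.

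Some responses passed in 1 genotype and not in the other, which does not show that they differed. In KO alone, Pkib (an inhibitor of protein kinase A), Hk1, the helicase gene Ddx21 and the deacetylase gene Sirt1 rose, by 0.91, 0.72, 0.36 and 0.53 log2, and Rufy2 fell by 0.92 log2. The call of Ddx21 was lost without treated KO library 2 or 3, untreated KO library 2 or 3 or treated WT library 3 (0.30 to 0.46 log2 over single omissions), and was 0.037 log2 with library totals alone. Hk1 (0.53 to 0.92 log2), Sirt1 (0.45 to 0.68 log2) and Rufy2 (-1.24 to -0.75 log2) lost theirs without treated KO library 2, Sirt1 also without treated KO library 3 and Rufy2 without untreated KO library 3. In WT alone, Ddit4 rose by 1.28 log2, Vsir by 0.95, Lims1 (the focal adhesion protein PINCH1) by 0.44 and Sar1a by 0.31 (-0.0045 with library totals alone). The Lims1 call was lost without treated WT library 2, untreated KO library 2 or 3 or any untreated WT library (0.29 to 0.54 log2), and that of Sar1a without any library except treated KO library 1 or 3 or treated WT library 1 (0.26 to 0.35 log2). Libraries with the same genotype and number were taken as paired across treatment, and with these pairs as a block 25 of the 50 were called in KO and 20 in WT, beside 34.9% and 31.9% of all genes tested. The WT call of Ddit4 was lost without treated WT library 1 or 3 or untreated WT library 2 (1.01 to 1.61 log2 over single omissions), and that of Vsir without treated WT library 1 or 2 or untreated WT library 2 or 3 (0.78 to 1.07 log2). The block added Anapc16, Chst3, Ddit4, Lims1, Pald1, Sar1a, Sgpl1, Smpdl3a and Vps26a in KO, and Anapc16, Cdh23, P4ha1, Pkib and Supv3l1 in WT.

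The test of the difference itself, KO response minus WT response, called 0 of the 50 genes by edgeR (beside 0% of all genes tested), the DESeq2 Wald test (beside 0.042%) or limma-voom, and 3 had an unadjusted p under 0.05 (Vsir, Rufy2 and Sirt1). For Vsir that difference was -1.37 ± 0.36 log2 (edgeR, adjusted p = 1.00). With the block within genotype it was -1.30 ± 0.22 log2 (edgeR, adjusted p = 0.0339), the 1 call of the 50, beside 0.287% of all genes tested. In every WT pair Vsir was higher in the treated library, and in KO it was higher in the treated library in 1 of 3 pairs. The Vsir response with the block was -0.34 ± 0.16 log2 in KO (edgeR, adjusted p = 0.112) and 0.96 ± 0.16 log2 in WT (edgeR, adjusted p = 0.00087).

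Of the other genes of the stretch, 16 had 0 counts in all 12 libraries, among them Neurog3 and Atoh7, transcription factors of nerve and endocrine progenitors, and Ctnna3, a catenin. A further 18 had counts in some libraries, with at most 18 in any one, and were not tested. The highest single counts among these, looked up after the values were seen, were in Fabp7 and Prf1. Fabp7, a fatty acid binding protein, had 5, 14 and 18 counts in treated KO libraries, against 4, 1 and 0 in treated WT libraries, and 5, 8 and 6 in untreated KO libraries, against 1, 7 and 0 in untreated WT libraries. Prf1, the perforin of cytotoxic cells, had 17, 0 and 0 counts in treated KO libraries, against 6, 0 and 1 in treated WT libraries, and 3, 0 and 2 in untreated KO libraries, against 1, 5 and 0 in untreated WT libraries. The sum of 8 NK and cytotoxic cell markers was 2.87 to 5.57 CPM in treated KO, 1.85 to 4.24 CPM in treated WT, 3.51 to 5.68 CPM in untreated KO and 3.06 to 3.62 CPM in untreated WT libraries. Differences between groups in these 18 genes were not tested at this depth.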

How the data were processed

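Raw counts per gene were deposited by the authors for 12 libraries of random-primed total RNA. Per the submitters' processing notes, CASAVA 1.8 called the bases, HISAT2 (no version stated) aligned the reads and the build was mm10. How reads were counted, with or without strand, and on which annotation is not given in the sources used here. All 84 genes matched GENCODE M21 in start and end.

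Counts were analysed with edgeR 4.0.16 (R 4.3.3). filterByExpr (minimum count 10) kept 14293 genes, libraries were scaled by TMM, and a robust quasi-likelihood model with a term per group was fitted to all 12 libraries, with 8 residual degrees of freedom. Contrasts were KO minus WT (treated, untreated, averaged), treated minus untreated (KO, WT) and their difference. P-values were adjusted by Benjamini-Hochberg over all genes tested, with a threshold of 0.05. SE was derived as |log2 fold change| divided by the root of F. Counts were simulated for the untreated KO minus WT contrast (14293 genes), with 100 genes changed 2-fold and 100 changed 4-fold. Of these, 60% and 91% were called, with 6 false calls. The changed genes all had a mean over 2 CPM, so these shares do not cover lower genes such as Unc5b and Pcbd1.

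The genes, marker lists and naming rule were chosen with earlier results of these data known. Named with values were Pcbd1, Unc5b, Vsir, Ddit4, genes called in a genotype difference or its interaction, up to 6 largest called responses in each direction, and tested genes within 1 Mb. 1 gene that the rule names is not reported here.

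Libraries are numbered 1 to 3 in the labels, with no meaning stated. Same-numbered libraries deviated together from their group means, with r = 0.226 to 0.53 within a genotype across treatments and at 0.115 to 0.314 between treated KO and treated WT, all over 0.1, and were taken as paired from the data. Between untreated KO and untreated WT r was 0.323, 0.14 and 0.0787 for numbers 1, 2 and 3. Number 3 alone fell under the cut of 0.1, and these were not taken as paired, though the difference from treated cells is small. The block across all libraries covers both treatments in 1 fit. Other settings tried were size factors from DESeq2 1.42.0, upper quartiles or totals in place of TMM, the Wald test, voom (limma 3.58.1), 2 filters, a fit on coding genes or on the compared groups, replicate blocks, a term for number 1, and omission of libraries. Tables and figures were made in Python 3.11.15 with pandas 2.3.3 and matplotlib 3.10.9.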

Additional observations from a re-analysis of the deposited data

Results flagged for a closer look

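Vsir responded to the bacteria differently in the 2 genotypes when libraries of the same genotype and number were taken as pairs. The KO response minus the WT response was then -1.30 log2 (edgeR, adjusted p = 0.0339), and without the pairing it was -1.37 log2 (edgeR, adjusted p = 1.00). Over 26 alternatives the difference ran from -1.57 to -0.98 log2, and the adjusted p from 0.0339 to 1.00. Vsir was lower in the treated library in 2 of 3 KO pairs and higher in 3 of 3 WT pairs.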

How the results depend on the processing

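Counts of called genes depended on the fit. For KO minus WT in untreated cells (4 of 50), the count was 7 with library totals alone and 10 by the DESeq2 Wald test. It was 8 with only the groups compared and 7 with a term for number 1. Of all genes tested, 13.8%, 17.9%, 16.6% and 17.4% were called in these settings, in this order, against 13%. With a replicate block across all libraries the count was 8, beside 18.1% of all genes tested, which added P4ha1, Pkib, Smpdl3a and Srgn. Number 3 paired these groups least (r = 0.0787). In treated cells (5 of 50) the count was 1 with only the groups compared, beside 8.09% of all genes tested. With the replicate block within genotype, the pairing found in the data, the KO response had 25 called against 16. The difference of responses then had 1 called, Vsir, against 0. Of all genes tested, 34.9% and 0.287% were called with that block. The block across all libraries in treated cells added 1 call, Ddx50, beside 20.6% of all genes tested, against 14.1%. For the averaged difference that block called 21 against 14, beside 33% of all genes tested. Leaving out 1 library at a time gave 1 to 9 called in untreated cells, 0 to 9 in treated cells and 8 to 17 averaged. It gave 11 to 18 in the KO response, 10 to 17 in the WT response and 0 for the difference of responses. The shares of all genes tested moved too, over 5.83% to 14.4% untreated, 6.95% to 19.6% treated and 21.5% to 30.9% averaged. They ran over 14.5% to 24.7% in the KO response and 10.2% to 19.9% in the WT response. Leaving out both KO libraries of a number was chosen after seeing the data. Without number 1 the counts were 10 in untreated and 11 in treated cells, beside 16.3% and 20.8% of all genes tested. Without number 2 they were 1 untreated, 0 treated, 6 averaged and 8 for the KO response, beside 6.05%, 5.04%, 16.4% and 8.84%. Without number 3 they were 1 untreated, 0 treated, 4 averaged and 9 for the KO response, beside 6.93%, 6.97%, 16.8% and 10.6%. The cause of these moves was not tested, beyond the smaller number of libraries. With library totals alone the averaged split was 14 higher and 1 lower in KO, and the treated split 5 higher and 0 lower. Over all genes tested these splits were 2908 higher and 863 lower averaged, and 1631 higher and 312 lower treated.

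Among the named genes, signs turned only in these cases. The Pcbd1 KO response was 0.13 log2 without both KO libraries numbered 2. The Sar1a WT response was -0.0045 log2 with library totals alone. The difference of responses of Unc5b ran from -0.69 to 0.99 log2 over single omissions, and was below 0 without treated KO library 3, treated WT library 2, untreated KO library 1 or 2 or untreated WT library 3. That of Pcbd1 was -0.29 log2 by limma-voom and -0.42 to 1.90 log2 over single omissions, below 0 without untreated WT library 3.

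Over all genes, several counts moved by more than 1.5 times. For treated KO minus WT, 1074 were called with only the groups compared, against 2016. For the responses, library totals alone gave 5721 in KO and 5024 in WT, and the block within genotype gave 4986 in KO and 4561 in WT, against 3292 and 2676. Single omissions gave as few as 863 for untreated KO minus WT (without untreated WT library 3), against 1852, 1028 for treated KO minus WT (without treated KO library 2), 2132 for the KO response (without untreated KO library 2) and 1509 for the WT response (without untreated WT library 2). Without both KO libraries numbered 2 the averaged count was 2402, against 4010. Depth limits the genes near 0, such as Unc5b, Pcbd1 and Spock2, where a few counts set the fold change.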
